A study of Mus musculus with 8 samples.

Results

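The genes that build ribosomes were followed in Tregs, the FoxP3-bearing regulatory T cells that hold immune responses in check. The set is a list of 44 mouse genes for ribosome biogenesis and nucleolar proteins. For each one the probe set annotated to that symbol alone was taken, and where a gene had several, the one with the highest mean over all 8 arrays. This gave 43 of the 44 genes, out of 19937 genes measured in this way. Noc2l had no probe set of its own and is only counted. No member was left out for a low value.

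FoxP3+ Tregs had been sorted from mice labelled as Bcl6 knock-out (KO) or wild type (WT). Bcl6 is a BTB zinc finger repressor of lymphocytes. Both groups alike had received anti-CD3 and anti-CD28 stimulation lasting 16 h. Each Affymetrix array was prepared from 100 ng of total RNA. There were 4 KO and 4 WT arrays, with 2 numbered preparations a group and arrays A and B of each. The labels do not say whether numbers or letters mark separate mice, and give no allele, strain, age or sort marker beyond FoxP3, so p-values measure the spread between these arrays, which may be technical.

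Ribosomes are made in the nucleolus. RNA polymerase I transcribes the long precursor of the ribosomal RNAs, small nucleolar ribonucleoproteins (snoRNPs) guide its chemical modification, and ordered sets of assembly factors cut, fold and pack it with ribosomal proteins into the small and large subunit. T cells enlarge their nucleoli and raise this machinery when they are activated, and the transcription factor Myc is a known driver of many of its genes.

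The promoters of 5 members are shown because the members are compared as a group that may share promoter letters. They are RefSeq sequences of the GRCm38.p6 build, from 250 bases before to 50 bases after a listed start, written 5′ to 3′ on the gene's strand. For Nop56 and Nop58 that start lies within the gene, after its first listed base (130274367 and 59684961). Capitals mark CCGGAAG (the core that ETS factors bind), GGGCGG (a GC box) and CACGTG (the E-box bound by Myc and Max), each searched on both strands. Nop56 and Nop58 are the paired core proteins of box C/D snoRNPs. Ncl is nucleolin, Nhp2 had the largest difference between the groups, and Utp18, shown after its values were seen, holds all 3 motifs. The windows are chr2:130274162-130274461 (plus strand) for Nop56, chr1:59684756-59685055 (plus) for Nop58, chr1:86359406-86359705 (minus) for Ncl, chr11:51619523-51619822 (plus) for Nhp2 and chr11:93885717-93886016 (minus) for Utp18.
Nop56: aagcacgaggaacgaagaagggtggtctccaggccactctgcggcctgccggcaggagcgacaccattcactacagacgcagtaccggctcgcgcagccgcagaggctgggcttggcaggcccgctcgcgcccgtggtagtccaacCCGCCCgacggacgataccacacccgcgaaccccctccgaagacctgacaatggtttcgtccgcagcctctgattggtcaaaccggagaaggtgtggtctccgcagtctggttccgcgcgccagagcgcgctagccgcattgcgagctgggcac
Nop58: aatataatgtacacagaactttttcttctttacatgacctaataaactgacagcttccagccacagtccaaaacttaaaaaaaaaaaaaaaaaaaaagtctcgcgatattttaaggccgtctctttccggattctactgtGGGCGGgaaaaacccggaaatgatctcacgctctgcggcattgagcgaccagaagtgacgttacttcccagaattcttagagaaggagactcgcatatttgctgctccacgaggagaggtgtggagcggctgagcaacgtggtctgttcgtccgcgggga
Ncl: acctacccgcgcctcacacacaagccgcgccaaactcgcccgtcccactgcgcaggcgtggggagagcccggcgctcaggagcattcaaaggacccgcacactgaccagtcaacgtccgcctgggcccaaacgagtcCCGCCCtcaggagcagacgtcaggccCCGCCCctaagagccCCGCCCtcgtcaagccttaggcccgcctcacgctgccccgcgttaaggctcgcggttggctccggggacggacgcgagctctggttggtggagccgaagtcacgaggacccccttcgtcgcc
Nhp2: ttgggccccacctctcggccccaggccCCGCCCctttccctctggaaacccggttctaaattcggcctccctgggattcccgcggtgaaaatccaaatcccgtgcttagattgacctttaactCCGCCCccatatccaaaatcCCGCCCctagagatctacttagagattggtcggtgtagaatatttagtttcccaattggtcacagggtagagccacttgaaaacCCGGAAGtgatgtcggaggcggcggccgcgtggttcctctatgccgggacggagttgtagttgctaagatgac
Utp18: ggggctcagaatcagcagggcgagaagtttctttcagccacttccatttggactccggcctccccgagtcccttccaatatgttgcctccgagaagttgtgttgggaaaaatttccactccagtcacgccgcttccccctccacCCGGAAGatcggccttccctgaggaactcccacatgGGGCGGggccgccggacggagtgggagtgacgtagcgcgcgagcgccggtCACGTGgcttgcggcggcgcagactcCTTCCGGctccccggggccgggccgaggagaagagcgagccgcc

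A promoter was listed for 38 of the 44 members. The E-box letters CACGTG stood in 8 of them (21.1%), against 8.09% of the 27025 genes with a promoter in the table. CCGGAAG stood in 12 (31.6%, against 9.93%) and GGGCGG in 30 (78.9%, against 38.2%). TTCCTAGAA, the letters of the core BCL6 motif, stood in 0 of 38, against 0.474% of all genes. The 8 members with CACGTG were Ltv1, Mybbp1a, Nop2, Pes1, Tsr1, Utp18, Utp20 and Wdr43. Their median difference between KO 1 and WT was 0.95 log2, and that of the 29 measured members whose window lacked these letters was 0.97. These are matches of letters only.

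Over the 43 members, the log2 difference between KO and WT arrays had a median of 0.50, a 1.42-fold higher level, and was above 0 in 42. None of the 43 passed the test. After quantile normalization, which gives all arrays the same distribution, the median was 0.25. The difference lay mostly in one preparation. In KO 1 the members were a median of 0.95 log2, or 1.93-fold, above the WT mean, and in KO 2 a median of 0.06, or 1.04-fold. Box C/D snoRNP proteins had the largest KO 1 difference of the groups of roles, and RNA polymerase I genes the smallest.

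**Figure D1:**
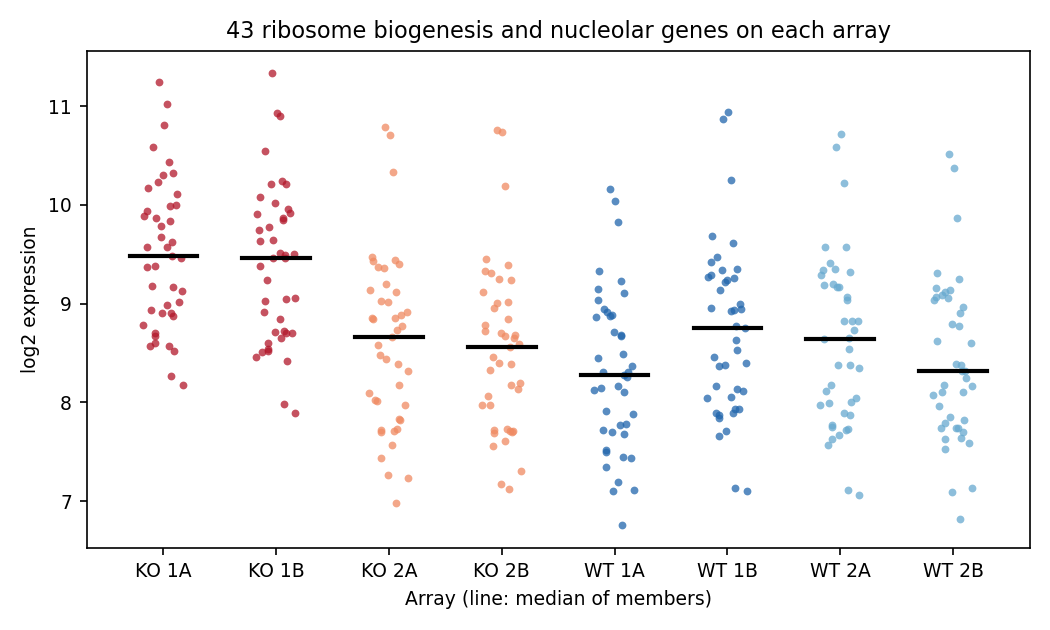
Log2 expression of the 43 members (points) on each of the 8 arrays, with the median as a line. The medians of KO 1A and KO 1B are 9.48 and 9.46, while those of the KO 2 arrays, 8.66 and 8.56, lie between the lowest and highest WT medians of 8.27 and 8.76.

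The test was limma on the log2 values with the preparation as a random block and Benjamini-Hochberg adjustment over all 19937 genes. It called 27 genes, 0.135% of those tested, and 0 members in either direction. The lowest adjusted p of a member was 0.701, with 40 members at that value to 3 digits, and SEs ran from 0.25 to 0.45. At an unadjusted p under 0.05, 4 members were higher (Rrp1b, Noc4l, Mrto4 and Nhp2), against 5.65% of all genes, and 0 lower. Leaving out KO 2B gave 17 such members (11.6% of all genes), leaving out WT 1B gave 8 (9.64%), and leaving out WT 1A gave 0 (3.38%). All 4 KO arrays lay above all 4 WT arrays in 5 members (Nhp2, Noc4l, Bysl, Rrp1b and Mrto4), against 6.67% of all genes. Without KO 2B there were 12 such members (9.86% of all genes) and without WT 1B 9 (12.8%). Over all genes the median difference was -0.06.

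Facts of the whole series bear on these values. The arrays differed in the SD of their log2 values, at 1.87 and 1.84 in KO 1 against 1.56 to 1.70 in the others. Bcl6 itself was not lower in the arrays labelled KO: 8.72 ± 0.24 against 8.13 ± 0.25 (SD, n = 4 each). Where its probes lie relative to the deleted part is not given, and its level is no check of the labels. Eif2s3y, Kdm5d and Uty, which are Y-linked, averaged 4.62 to 4.80 in KO and 6.94 to 8.30 in WT arrays, and this difference and the genotype label cannot be told apart. The 5 measured T cell markers had a mean of 10.3 to 11.1 on every array, and the 5 Treg markers 9.72 to 11.5. In 4 of those 5 Treg markers every KO array lay above every WT array, and their part in the members' values was not tested. The measured markers of B cells (5 of 6), NK cells (3 of 3), macrophages and monocytes (5) and neutrophils (4 of 4) had means of 5.90 to 6.20, 4.74 to 5.13, 6.04 to 6.42 and 6.22 to 6.74. Those of dendritic cells (4 of 4) and of CD8 T cells (2 of 2) had means of 6.32 to 6.88 and 7.16 to 7.73, and the 1 measured of 4 erythroid markers lay at 6.02 to 6.74. As deposited, each of these 7 lists had a lower mean in KO 1 than in KO 2, and all genes of log2 5 to 6 and 6 to 7 had median KO 1 differences of -0.29 and -0.41. After quantile normalization the median difference from WT was higher in KO 1 than in KO 2 for the macrophage and monocyte, neutrophil and erythroid lists. The B cell marker Cd79b was at 8.05 and 7.90 in KO 1, 7.50 and 7.78 in KO 2 and 7.35 to 7.58 in WT arrays. Array values have no true 0. In bulk RNA a change in the kinds of cells and a change of RNA per cell cannot be told apart.

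The spread of an array and the level of the members went together. From the lowest to the highest SD, the mean of the 43 members was 8.31 (WT 1A), 8.41 (WT 2B), 8.54 (KO 2B), 8.62 (WT 2A), 8.60 (KO 2A), 8.72 (WT 1B), 9.40 (KO 1B) and 9.50 (KO 1A). The order broke at 1 step only, between WT 2A and KO 2A. By level, the median member stood at percentile 88.4 of all genes. A wider SD goes with higher values for genes so far above an array's centre, whatever their role. By rank on the same array, the members' median lay at percentiles 88.8 and 89.7 in KO 1 and 87.9 and 86.7 in KO 2. In the WT arrays it lay at 85.1 to 88.1. When each array's SD entered the fit as a covariate, the median KO minus WT difference was 0.02 instead of 0.50, and 23 of 43 members were above 0. That fit called 1599 genes higher and 884 lower, and among the members Noc4l higher (0.27, SE 0.07, adjusted p = 0.0299) and Wdr12 lower (-0.35, SE 0.06, adjusted p = 0.00242). Its block correlation was negative (-0.367), and with no random block Noc4l did not pass (adjusted p = 0.111) while Wdr12 did (adjusted p = 0.0263). The Wdr12 values are those of its brighter probe set. Its dimmer set differed by 0.17 between KO and WT as deposited and was not fitted with the covariate. Both KO 1 arrays had a wider SD than all others, so the covariate and preparation KO 1 can hardly be told apart. Leaving out KO 1, with no covariate, gave a median difference of 0.06. Whether the wide spread of KO 1 comes from the cells or from the arrays was not tested.

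**Figure D2:**
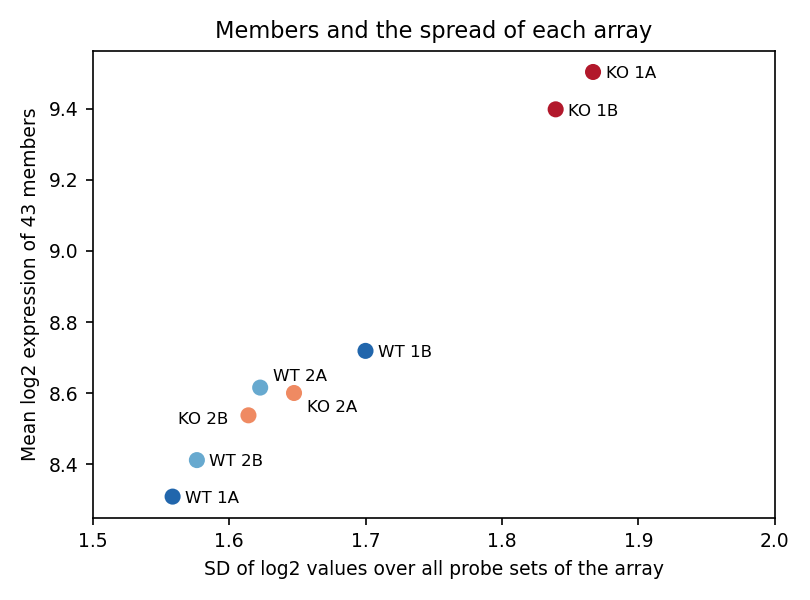
Mean log2 expression of the 43 members against the array's SD (log2, all probe sets), 1 point for each of 8 arrays. The KO 1 arrays stand apart at the top right, at 9.50 and 9.40, and the KO 2 arrays, at 8.60 and 8.54, lie among the WT arrays.

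The preparations labelled KO were then compared with each other. This test (limma, 1 mean per preparation) sets KO 1 against KO 2 by the spread between letters A and B, so it says that these preparations differ and nothing about genotype. Both KO 1 arrays lay above both KO 2 arrays in all 43 members and in 7779 of the 19937 genes. Of the 43 members, 40 were called higher in KO 1 and 0 lower, against 27.7% of all genes called higher and 31.0% lower. The adjusted p of these 40 lay between 7.5e-04 and 0.0376. The share of all genes called higher depended on their mean log2 level. It was 31.7% at 7 to 8, 67.2% at 8 to 9, 71.4% at 9 to 10 and 48.9% at 10 to 11. Members called higher at these levels numbered 9 of 9, 18 of 18, 12 of 13 and 1 of 3. Fbl (0.0622), Ncl (0.10) and Npm1 (0.664), which encode fibrillarin, nucleolin and nucleophosmin, were the members that did not pass. With values as deposited, the count of 40 became 5 without KO 1A (3.81% of all genes) and 18 without KO 2B (8.22%). After quantile normalization of all 8 arrays, 20 members were called higher and 0 lower, against 13.5% of all genes called higher. This 13.5% covers genes of every level and was not taken by level. Between WT 1 and WT 2, 0 members passed limma's test, with 0 at an unadjusted p under 0.05, and 0.0% of all genes passed, with 210 at an unadjusted p under 0.05. The letters of WT 1 differed by more than those of the other preparations: the median gap between A and B over the members was 0.41 in WT 1, 0.18 in WT 2, 0.12 in KO 1 and 0.07 in KO 2.

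Both KO 1 arrays lay above all 4 WT arrays in 42 of 43 members, the exception being Npm1, while 34.0% of all genes did so. That share is over genes of every level and was not taken by level. The median KO 1 difference of all genes was -0.41 at log2 6 to 7, 0.02 at 7 to 8 and 0.67 at 8 to 9. Both KO 2 arrays lay above all WT arrays in 5 members, against 9.54% of all genes, below all of them in 1 (Wdr12) and touched the WT range in 37. In the dimmer probe set of Wdr12, KO 2 (7.38 and 7.41) lay above WT 1A (7.08). KO 1A held the highest of the 8 values in 33 members and KO 1B in 9. WT 1A held the lowest in 27.

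Members were also set beside genes of the same level. Genes with a mean of 8 to 9 log2 had a median KO 1 difference of 0.67 (3219 genes) and genes of 9 to 10 one of 0.80 (1340 genes). The members there were at 0.96 (18 members) and 0.93 (13 members). Genes of 7 to 8 had a median of 0.02 (5165 genes), and the 9 members of that level one of 1.01. At 10 to 11 the 3 members were at 0.75 and all 348 genes at 0.80. In all, 32 of 43 members lay above the median of their level, and above log2 9 this held for 8 of 16. The members' median in KO 1 depended on the scaling, as did that of all genes, which was -0.13 as deposited. The members' median was 0.48 after quantile normalization (all genes -0.01), 0.91 with each array scaled to the same SD (all genes 0.20) and 1.19 after median centring (all genes 0.11).

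**Figure D3:**
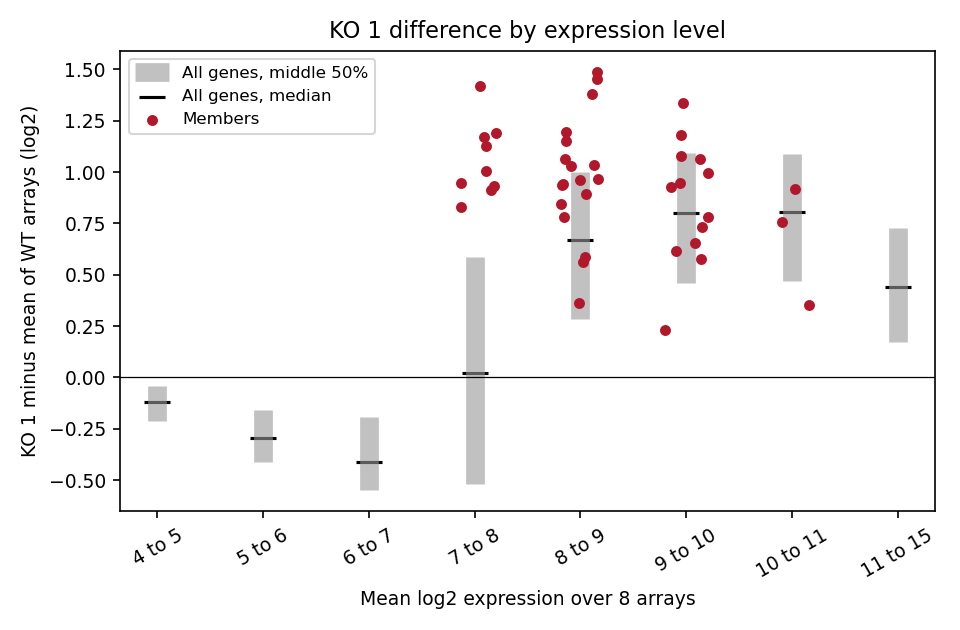
KO 1 minus the mean of the WT arrays (log2) by mean log2 level: grey bars show the middle 50% of all genes, black ticks their median and red points the 43 members. At 7 to 8 the members lie above the middle of all genes (median 1.01 against 0.02), while at 8 to 9, 10 of 18 members lie within the middle 50% and 8 above it.

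The RNA polymerase I members had a median difference of 0.31. Ubtf encodes UBF, which opens ribosomal DNA for polymerase I. It was at 10.17 and 10.08 in KO 1, 9.44 and 9.45 in KO 2, 9.33 and 9.68 in WT 1 and 9.57 and 9.31 in WT 2, arrays A and B in turn. KO 2 lay within the WT range and KO 1 above it. The difference of 0.31 (SE 0.30, adjusted p = 0.701 in limma) did not pass. Without KO 1 it was -0.03. The catalytic subunit genes Polr1a and Polr1b were 0.36 and 0.78 above WT in KO 1, and -0.13 and -0.15 from it in KO 2; after quantile normalization Polr1a was at -0.04 in KO 1. All 3 were called higher in KO 1 than in KO 2, with limma adjusted p of 0.0143, 0.025 and 0.00271 for Ubtf, Polr1a and Polr1b. Polr1b alone passed after quantile normalization (limma adjusted p = 0.0326). Of all genes, 67.2% at log2 8 to 9 and 71.4% at 9 to 10 were called higher as deposited. After quantile normalization it was 13.5% over all levels.

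Box C/D snoRNPs carry out ribose methylation of ribosomal RNA. Nop56 was at 10.58 and 10.55 in KO 1, 9.37 and 9.31 in KO 2, 8.94 and 9.47 in WT 1 and 9.41 and 9.08 in WT 2. KO 1 was more than 1 log2 above every other array, and KO 2 lay inside the WT range. The KO mean was 9.95 ± 0.71 and the WT mean 9.23 ± 0.26 (SD, n = 4 each), a difference of 0.73 (SE 0.38, limma adjusted p = 0.701). KO 1 exceeded KO 2 by 1.22 (SE 0.22, limma adjusted p = 0.00223), and by 0.82 after quantile normalization (adjusted p = 0.00713). Its partner Nop58 exceeded WT by 1.38 in KO 1 and by 0.17 in KO 2.

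Fbl, the methyltransferase of these particles, had a smaller difference of 0.36 (SE 0.27, limma adjusted p = 0.701). Its values were 9.94 and 9.75 in KO 1, 9.47 and 9.33 in KO 2, 9.15 and 9.43 in WT 1 and 9.34 and 9.15 in WT 2. KO 1 lay above all WT arrays, and KO 2B below WT 1B and WT 2A. The difference from WT was 0.58 in KO 1 and 0.14 in KO 2, and after quantile normalization 0.06 and 0.08. Fbl has another probe set, which ran from 7.66 to 8.09 over the 8 arrays, with differences of 0.27 and 0.17. The brighter set, used here by the rule, has an identifier whose neighbours are annotated to another chromosome than Fbl, so it may read a copy elsewhere.

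Box H/ACA snoRNPs convert uridine to pseudouridine, and all 4 members were called higher in KO 1 than in KO 2. At their levels, log2 8 to 9 and 9 to 10, 67.2% and 71.4% of all genes were called so. Nhp2, a core protein of the particle, was at 9.68 and 9.46 in KO 1, 8.44 and 8.39 in KO 2, 7.70 and 8.38 in WT 1 and 8.38 and 7.86 in WT 2. Each KO array was above each WT array, though KO 2B exceeded WT 2A by little. It had the largest difference of any member, 0.91 (SE 0.40, unadjusted p = 0.0405, limma adjusted p = 0.701), from 8.99 ± 0.67 against 8.08 ± 0.35 (SD, n = 4 each). Nop10, the smallest core protein of the particle, exceeded WT by 1.18 in KO 1 and lay -0.12 from it in KO 2. Dkc1, the pseudouridine synthase dyskerin, had differences of 0.97 and 0.09, and Gar1 of 0.94 and 0.12. After quantile normalization Nop10 alone of the 4 passed between the preparations (limma adjusted p = 0.0118), against 13.5% of all genes called higher.

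The abundant nucleolar proteins had a median difference of 0.50, and 3 of 5 were called higher in KO 1 than in KO 2. At their levels, log2 9 to 10 and 10 to 11, 71.4% and 48.9% of all genes were called so. Npm1, a nucleolar chaperone, was at 10.80 and 10.93 in KO 1, 10.71 and 10.74 in KO 2, 10.04 and 10.94 in WT 1 and 10.72 and 10.37 in WT 2. WT 1B was the highest of the 8 arrays, and all KO arrays lay within the WT range. The KO 1 difference was 0.35, and -0.08 after quantile normalization. Ncl, which binds ribosomal RNA precursors, was at 11.24 and 11.33 in KO 1, 10.79 and 10.76 in KO 2, 10.16 and 10.87 in WT 1 and 10.59 and 10.51 in WT 2. KO 2 lay below WT 1B and above the other WT arrays.

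Mybbp1a, a nucleolar Myb-binding protein, had the smallest unadjusted p of these 5. It was at 10.32 and 10.21 in KO 1, 9.40 and 9.24 in KO 2, 9.10 and 9.35 in WT 1 and 9.32 and 8.97 in WT 2. KO 1 stood apart and KO 2 straddled the highest WT values. The difference was 0.61 (SE 0.32, limma adjusted p = 0.701). It was 1.08 for KO 1 alone and 0.13 for KO 2 alone. The RNA helicase gene Ddx21 and Nolc1, whose protein assembles snoRNPs, were 0.92 and 0.61 above WT in KO 1.

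All 14 small subunit factors, which process the precursor from its 5′ end and carry the pre-40S particle outward, were called higher in KO 1 than in KO 2. Their median difference from WT was 0.94 in KO 1 and 0.01 in KO 2, and 7 passed after quantile normalization. Of all genes, 27.7% were called higher in KO 1 than in KO 2, and 13.5% after quantile normalization. At the levels of these factors, log2 7 to 8, 8 to 9 and 9 to 10, the share as deposited was 31.7%, 67.2% and 71.4%. Noc4l, a partner of Nop14, was at 9.38 and 9.24 in KO 1, 8.48 and 8.46 in KO 2, 7.91 and 8.37 in WT 1 and 8.17 in both WT 2 arrays. Each KO array was above each WT array. The difference was 0.73 (SE 0.30, unadjusted p = 0.0305, limma adjusted p = 0.701). It was 1.15 for KO 1 and 0.31 for KO 2, and without KO 1 limma called it (0.31, SE 0.08, adjusted p = 0.0401) along with 5.64% of all genes. That fit had a negative block correlation (-0.629), and with no random block Noc4l did not pass (SE 0.15, adjusted p = 0.858).

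Bysl, the pre-40S factor bystin, had a tight WT group. It was at 8.18 and 7.89 in KO 1, 7.24 and 7.31 in KO 2, and 7.11, 7.10, 7.07 and 7.14 in the WT arrays. The groups did not overlap, and the KO mean was 7.66 ± 0.46 against 7.11 ± 0.03 (SD, n = 4 each). The difference of 0.55 (SE 0.26, limma adjusted p = 0.701) did not pass, and that between KO 1 and KO 2 did (0.76, SE 0.16, limma adjusted p = 0.00387).

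Utp18, the member with the widest gap between the preparations, was at 8.91 and 8.71 in KO 1, 7.26 and 7.17 in KO 2, 7.11 and 7.71 in WT 1 and 7.67 and 7.09 in WT 2. KO 2 lay within the WT range. KO 1 exceeded KO 2 by 1.59 (SE 0.23, limma adjusted p = 8.4e-04). Utp15 (1.19 and -0.13 from WT in KO 1 and KO 2), Wdr75 (1.13 and 0.04), Utp14a (1.06 and 0.26) and Rrp9 (1.01 and -0.11), the last a protein of the U3 snoRNP, were also more than 1 above WT in KO 1. Wdr43, Ltv1, Nop14, Heatr1, Tsr1, Utp20 and Rrp12 had KO 1 differences of 0.93, 0.95, 0.90, 0.78, 0.73, 0.59 and 0.56, and KO 2 differences between -0.12 and 0.06.

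The large subunit factors build the pre-60S particle. All 14 measured members were called higher in KO 1 than in KO 2, 8 of them after quantile normalization. The shares of all genes were 27.7% and 13.5%. As deposited, they were 31.7%, 67.2% and 71.4% at log2 7 to 8, 8 to 9 and 9 to 10, where these members lie. Rrp1b had the smallest unadjusted p of all members (0.0241). It was at 8.94 and 8.91 in KO 1, 8.02 and 7.97 in KO 2, 7.72 and 7.89 in WT 1 and 7.57 and 7.75 in WT 2. Each KO array was above each WT array, in KO 2 by a smaller step than in KO 1. The difference was 0.73 (SE 0.28, limma adjusted p = 0.701), from 8.46 ± 0.54 against 7.73 ± 0.13 (SD, n = 4 each). KO 1 was 1.19 and KO 2 0.26 above WT.

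Mrto4, a relative of the stalk protein P0 that holds its place on the pre-60S particle, was at 9.18 and 9.03 in KO 1, 8.58 and 8.33 in KO 2, 8.31 and 8.17 in WT 1 and 8.00 and 8.11 in WT 2. The groups did not overlap, KO 2B lying just above WT 1A. The difference was 0.64 (SE 0.27, limma adjusted p = 0.701) and was 0.64 in its other probe set as well. In that set WT 1A lay above KO 2B, at 8.14 against 8.13.

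Ebna1bp2 (1.45 above WT in KO 1 and 0.17 in KO 2), Nip7 (1.17 and 0.09) and the PeBoW complex genes Pes1 (1.07 and 0.03) and Bop1 (1.03 and 0.14) were also more than 1 above WT in KO 1. The nucleolar GTPase genes Gnl3, which encodes nucleostemin, and Gnl2 had KO 1 differences of 1.03 and 0.94 and KO 2 differences of -0.07 and -0.08. Ftsj3, Nop2, Noc3l, Nop16 and Rrs1 had KO 1 differences of 0.99, 0.95, 0.91, 0.84 and 0.83. The third PeBoW gene, Wdr12, was the member with a difference below 0, at -0.05 (SE 0.26, limma adjusted p = 0.924). KO 1 was 0.23 above WT (-0.30 after quantile normalization) and KO 2 -0.32 from it. Its dimmer probe set differed by 0.17, with 0.62 and -0.27. For Wdr12 and Mrto4, as for Fbl, the brighter set has an identifier among those of another chromosome.

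**Figure D4:**
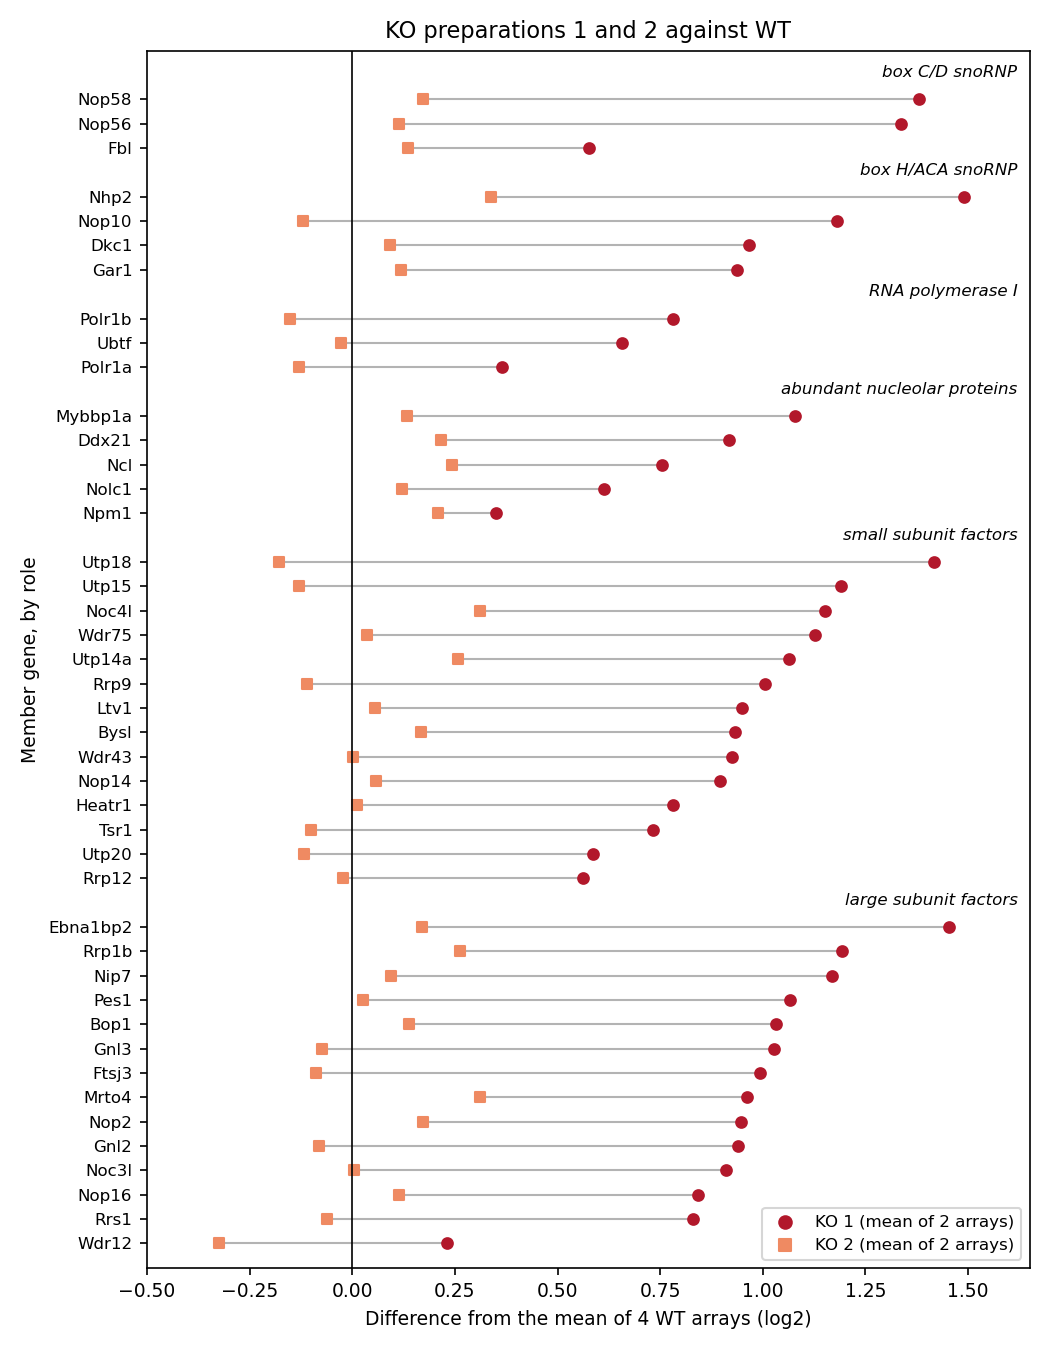
Difference from the mean of the 4 WT arrays (log2) for each of 43 members, grouped by role, with KO 1 as circles and KO 2 as squares, each the mean of 2 arrays. All 43 circles lie to the right of their squares, and the squares lie between -0.32 and 0.34.

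Genes around the members were taken from lists of the same pathway. Of 72 measured further ribosome biogenesis factors limma called 0 (1 higher, none lower, by unadjusted p under 0.05), and 71 differed from WT by more than 0. Their median of 0.43 came from 0.88 for KO 1 and 0.01 for KO 2. Of them, 65 were called higher in KO 1 than in KO 2, and 23 after quantile normalization. A higher median in KO 1 than in KO 2 was also seen for snoRNP assembly factors (8 measured, medians of 0.82 in KO 1 and 0.02 in KO 2), other RNA polymerase I genes (12, 0.85 and -0.02), the RNA exosome (11, 1.03 and 0.02) and RNA polymerase III genes (17, 0.60 and -0.03). Called higher in KO 1 than in KO 2 were 8 of the 8 snoRNP assembly genes (6 after quantile normalization) and 10 of 12 polymerase I genes (3). So were 10 of 11 exosome genes (7) and 13 of 17 polymerase III genes (6). Over all genes the share was 27.7%, and 13.5% after quantile normalization. As deposited it was 31.7% for all genes of log2 7 to 8 and 67.2% for those of 8 to 9. The median WT levels of these lists lay in those ranges. Limma called 0 genes of these 4 lists between KO and WT, with 0 at an unadjusted p under 0.05. Rrn3, which brings polymerase I to its promoter, had a difference of 0.49 (SE 0.34, limma adjusted p = 0.701), made of 0.94 for KO 1 and 0.05 for KO 2.

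Cytosolic ribosomal proteins, the structural parts that the members assemble, differed much less. Of 79 listed, 55 had a probe set of 1 symbol. Limma called 0 of them between KO and WT, with 0 at an unadjusted p under 0.05. Their median difference was 0.15 (-0.07 with arrays scaled to the same SD), from 0.31 for KO 1 and 0.02 for KO 2, at a median WT level of 11.8. Between KO 1 and KO 2, 2 were called higher and 1 lower. Both KO 1 arrays lay above both KO 2 arrays in 46 of the 55, and in 7779 of all 19937 genes. Among all genes above log2 11 the median KO 1 difference was 0.44, and 4.71% were called higher in KO 1 than in KO 2. Rpl5 was at 12.42 ± 0.09 in KO and 12.42 ± 0.21 in WT arrays (SD, n = 4 each). Ribosomal protein genes have many near-identical copies, so probe sets of these genes may share signal with them. The snoRNA host transcripts had 2 of 8 measured, with a median of 0.77 in KO 1 and -0.01 in KO 2.

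Myc ran with the members. It was at 10.14 and 10.13 in KO 1, 9.04 and 8.84 in KO 2, 8.28 and 9.12 in WT 1 and 9.02 and 8.76 in WT 2. KO 1 was about 1 log2 above the highest WT array and KO 2 lay within the WT range. The difference was 0.74 (SE 0.42, limma adjusted p = 0.701). Of its network of 12 measured genes limma called 0, with 0 at an unadjusted p under 0.05, and the median was 0.40 in KO 1 and 0.04 in KO 2. Of the list on p53 and nucleolar stress 3 genes were measured, Nop53, Mdm2 and Rpl5, with a median of 0.36 in KO 1 (-0.01 after quantile normalization) and -0.01 in KO 2. Mdm2, the p53 ligase that ribosomal proteins can bind, exceeded WT by 1.01 in KO 1 and by 0.16 in KO 2.

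Genes of dividing cells did not keep to KO 1. The 9 measured had a median of 2.01 above WT in KO 1 and 0.65 in KO 2, and both KO 2 arrays lay above all WT arrays in 8 of them, as against 5 of the 43 members. Limma, adjusted over all genes, called 0 of these 9 between KO and WT, with 8 at an unadjusted p under 0.05. After quantile normalization it called 3 higher (Mki67, Top2a and Ccna2, the last named after its value was seen). Mki67 exceeded WT by 1.86 in KO 1 and by 0.87 in KO 2, and Top2a 2.39 and 1.16. Whether the share of dividing cells plays a part in the members' levels was not tested. The 9 quiescence genes had a median of 0.12 in KO 1 (-0.28 after quantile normalization) and -0.20 in KO 2. Limma called none of them (0), and 1 was lower by unadjusted p under 0.05. After quantile normalization 1 was called lower (Foxp1, named after its value was seen).

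**Figure D5:**
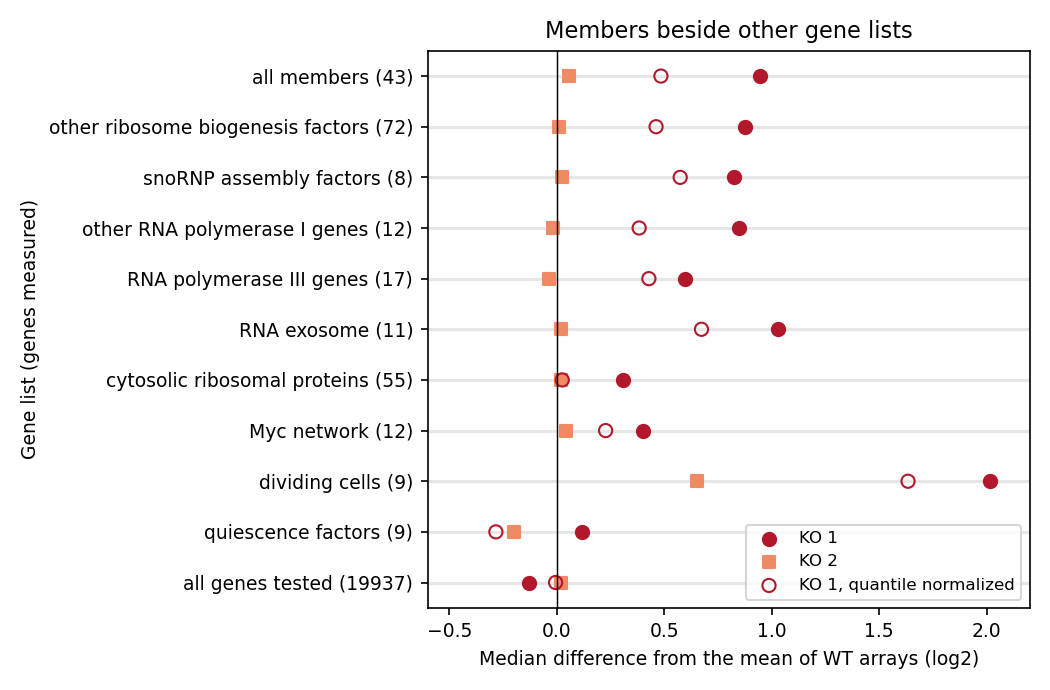
Median log2 difference from the WT mean for the members and the other lists with 5 or more genes measured, with KO 1 as filled circles, KO 2 as squares and KO 1 after quantile normalization as open circles. The members stand at 0.95, 0.06 and 0.48, cytosolic ribosomal proteins at 0.31, 0.02 and 0.03, and dividing cell genes at 2.01, 0.65 and 1.63.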

How the data were processed

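The authors deposited log2 expression values per probe set for 8 arrays, and the submitters' processing notes name RMA and Partek. Their versions, settings and any filters are not given here. RMA commonly makes array distributions equal, but the deposited arrays differ in spread. The table holds 28768 probe sets with 0 missing values, and 0 columns of per-sample values went unused. It was used without further normalization. Of the probe sets, 21771 had 1 gene symbol in the platform annotation, 1557 several and 5440 none. List names missing there were looked up through RefSeq gene identifiers and synonyms.

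The KO minus WT difference of each gene was fitted in R 4.3.3 by limma 3.58.1 (lmFit, then eBayes with a variance trend), with preparation as a random block (estimated correlation 0.617) and Benjamini-Hochberg adjustment over 19937 genes, two-sided, at 0.05. Preparations were compared in a separate limma fit with 1 mean each. On simulated arrays of 19937 genes for the KO minus WT comparison, limma recovered 14% of genes changed by 0.5 log2, 94% at 1 and 100% at 2 and at 3. The simulated spread was set in advance, was the same for every gene and held no array-wide differences in SD. These shares therefore do not say how often the test would call such changes in the members, whose SEs ran from 0.25 to 0.45.

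Named in every array were the members with the smallest p in each role group (2 in the largest groups), with Ncl, Npm1, Fbl and, after its values were seen, Utp18. The members, lists and rules were chosen with earlier results of these data known. Alternatives covered scaling, block, variance model, filter, probe set, array weights, spread, fold threshold and left-out arrays.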

Additional observations from a re-analysis of the deposited data

How the results depend on the processing

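With 2 preparations a group, of which 1 stands apart, the KO minus WT values rest on KO 1. No member was called higher in 24 of 29 alternatives and none lower in 26. For higher, the preparation number as a replicate block gave 1 member (Rrp1b, limma adjusted p = 0.0481), against 3.11% of all genes. The SD covariate gave 1, against 8.02%, but 0 with no random block. Leaving out KO 1 gave 1, against 5.64%, but 0 with no random block. Leaving out KO 2 gave 43, and 40 with no random block. Those fits without KO 2 called 36.3% and 30.1% of all genes higher and 48.5% and 37.0% lower. For lower, Wdr12 was called with the SD covariate (1, against 4.43% of all genes). With no random block it was called as well (1, against 1.86%). Without KO 1 it was called too (1, against 1.71%, but 0 with no random block). These Wdr12 calls rest on its brighter probe set. Leaving out either KO preparation made the block correlation negative (-0.629 and -0.642), as did the SD covariate (-0.367). The median difference of 0.50 became 0.254 after quantile normalization, 0.015 with the SD covariate (0.014 with no random block), 0.059 without KO 1 and 0.947 without KO 2, in both kinds of fit, and 0.38 to 0.61 leaving out single arrays. The median in KO 1 became 0.485 after quantile normalization and 0.89 to 1.02 without single arrays. Members whose groups do not overlap numbered 1 after median centring, against 4.88% of all genes with KO higher. They numbered 2 with SD scaling (5.95%), 9 without WT 1 (15%) and 42 without KO 2 (34.0%). Without single arrays there were 5 to 12 such members, and the shares ran from 6.83% to 12.8%. The KO 1 over KO 2 count of 40, against 27.7% of all genes, became 20 after quantile normalization, against 13.5%. Leaving out single arrays gave counts of 5 to 42 and shares of 3.81% to 33.9%. Ubtf reversed with the SD covariate (-0.071, and -0.066 with no random block) and without KO 1 (-0.027 in both fits). SD scaling and the fits with no random block beside a left-out preparation or the covariate were chosen after seeing the data. Preparation numbers do not pair the groups in the labels; KO 1 minus KO 2 and WT 1 minus WT 2 correlated at 0.416 over genes. The cause of these shifts was not tested. The number of arrays limits all of these values.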
